A study of Mus musculus with 4 samples.

Results

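The macrophage and inflammatory signalling genes described here are 36 named genes, among them macrophage markers, the chains of complement C1q, Toll-like receptors, chemokines and cytokines. They were chosen by name, as the probe sets of the array whose only gene symbol is 1 of the 36. All 36 were measured, by 61 of the 45037 probe sets tested, and they are 36 of the 18193 genes that such probe sets name in all. A probe set is a group of short probes on the array that reads the transcript of a gene.

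Gene expression was measured on Affymetrix Mouse Genome arrays in hearts of 2 *Junf/f* and 2 *Jun delta mu* mice, 1 array per replicate. *Junf/f* mice carry floxed alleles of *Jun*, the gene of the AP-1 transcription factor c-Jun. *Jun delta mu* mice carry the same floxed alleles and the MCK-Cre transgene, in which the creatine kinase promoter drives Cre recombinase in striated muscle. All 4 samples came from littermates at 10 weeks of age on a mixed 129/Ola-C57BL/6 background, without any operation or treatment. Macrophages, endothelial cells and fibroblasts of a *Jun delta mu* heart are not targeted by this driver. The growth notes of the samples describe plated cells of digested ventricles, whereas titles, source and methods name whole hearts. The arrays were read as hearts, and this conflict was not resolved. In RNA of a whole tissue, fewer cells of a type and less RNA per cell cannot be told apart.

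The healthy heart holds resident macrophages, which take up dying cells and debris and sit between muscle fibres and vessels. Toll-like receptors recognise microbial products and molecules set free by damaged cells. Through adaptors, for most of them MyD88, and the transcription factors NF-kappaB and AP-1 they switch on genes of cytokines and chemokines. Chemokines attract leukocytes, and CCR2 and CX3CR1 are the chemokine receptors by which recruited monocytes and resident cells are commonly told apart.

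Of the 36 genes, *Tlr4*, the receptor for bacterial lipopolysaccharide, was the 1 gene that fell past the study's threshold in *Jun delta mu* hearts, to 60.1% of the *Junf/f* signal, and no gene rose past it. This threshold is a difference above 1.3-fold (0.38 on the log2 scale) with an unadjusted p under 0.05, here from limma. Signals are RMA values on the log2 scale, and every difference is the *Jun delta mu* mean minus the *Junf/f* mean. Among all 18193 genes, each read by its brightest probe set, 0.786% were lower and 0.665% higher past this threshold. The 35 other members lay between -0.36 and 0.39, with standard errors of at most 0.21, and all but 2 were read by probe sets above the dimmest 40% of the array. Their macrophage markers, Fc receptor genes and C1q chains showed no common shift, and the chemokines closest to the threshold had opposite signs, *Ccl7* at -0.36 and *Ccl8* at 0.39. Over the 36 genes the median difference was -0.02, with 20 below 0 and 16 above, against a median of 0.01 over all genes. An unadjusted p under 0.05 was reached by 3 of the 36 genes in limma (*Tlr4*, *Ccl7* and *Cx3cr1*). By the methods' t-test it was reached by 1 (*Tlr4*). Among all 18193 genes, 830 reached it in limma and 937 by that t-test, the background for each such count below.

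The deleted gene itself checked the labels. *Jun*, as the mean of its 2 probe sets, was at 8.04 and 8.58 on the *Junf/f* arrays and at 6.80 and 7.00 on the *Jun delta mu* arrays, a difference of -1.40 (standard error 0.19) that leaves 37.8% of the *Junf/f* signal. Median signals of the arrays lay between 5.45 and 5.47. *Junf/f* replicate 1 stood apart, where 104 probe sets deviated over 2-fold from the average of the remaining arrays (24 to 33 did so elsewhere), and results that rest on it are given below with and without it. After Benjamini-Hochberg adjustment no probe set passed 0.05 by limma (0 of 45037, smallest adjusted p = 0.237) or by the methods' t-test (0), while 2326 had an unadjusted p under 0.05 in limma. With 2 arrays against 2 an exact permutation test cannot go below p = 0.333 (two-sided), and the limma calls below rest on the spread that limma pools over the array.

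**Figure D1:**
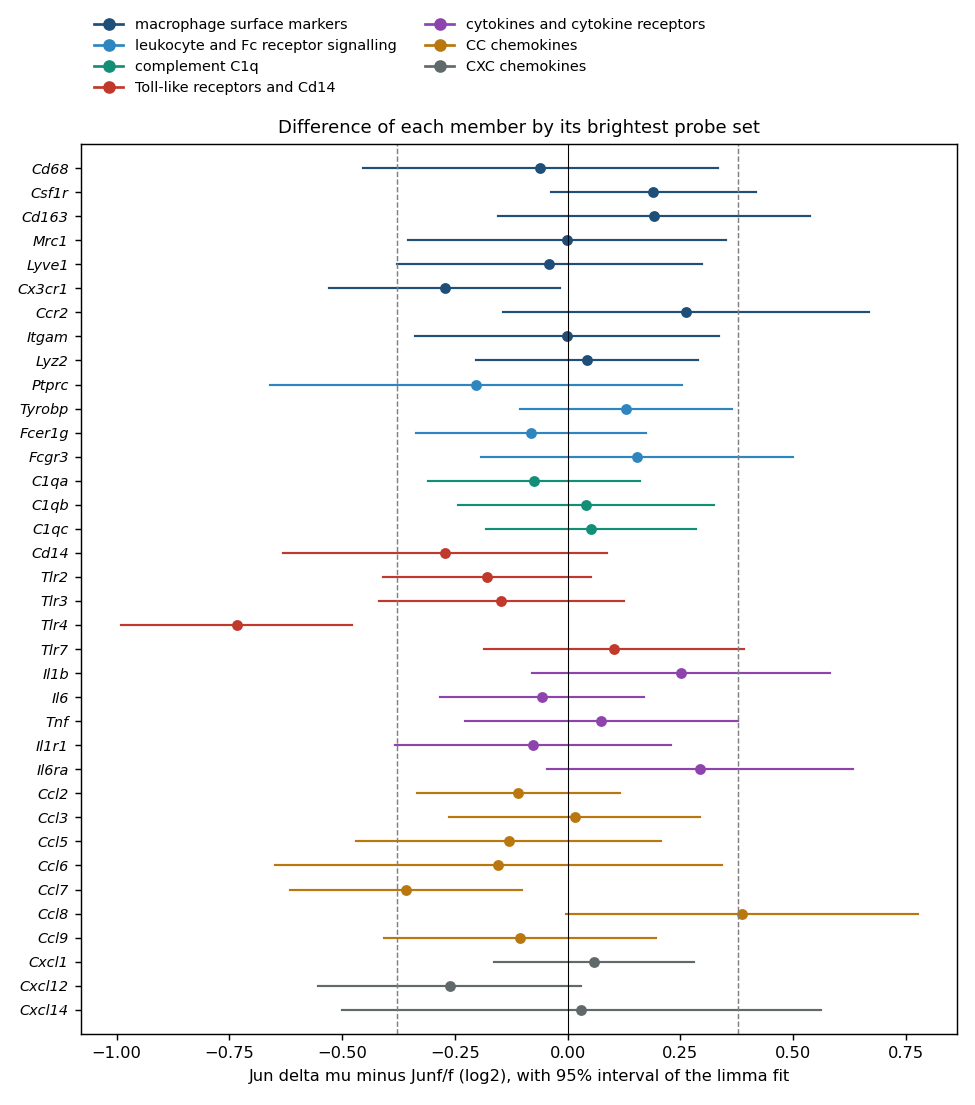
Difference of each of the 36 genes between the genotypes by its brightest probe set, as Jun delta mu minus Junf/f on the log2 scale, with the 95% interval of the limma fit. Colours mark the role of the gene and dashed lines a 1.3-fold difference: the interval of Tlr4, -0.99 to -0.48, lies wholly beyond the line, and that of no other gene does.

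*Tlr4* lies on chromosome 4 of GRCm38 from 66827551 to 66846581, on the same chromosome as *Jun*, whose start lies 28.2 megabases beyond its end. Its brightest probe set, 1418162_at, gave 7.83 and 7.82 on the *Junf/f* arrays and 7.18 and 6.99 on the *Jun delta mu* arrays. The groups did not overlap, and their difference of -0.73 (standard error 0.10, 95% interval -0.99 to -0.48) was far larger than the 0.01 and 0.19 between the arrays of a genotype. It was the 20th smallest p of all probe sets (limma, unadjusted p = 0.000558, adjusted p = 0.896). The methods' t-test on the same values gave an unadjusted p of 0.0159.

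The other probe sets of *Tlr4* read the same direction. Probe set 1442827_at was at 6.19 and 6.03 in *Junf/f* and at 5.50 and 5.59 in *Jun delta mu* hearts, a difference of -0.57. Probe set 1418163_at was at 7.21 and 7.10 against 6.79 and 6.63, a difference of -0.44. The dimmest, 1430695_at, was at 4.48 and 4.15 against 3.86 and 3.90, a difference of -0.43, and lies in the dimmest 40% of the array. None of the 4 probe sets overlapped between the genotypes, where 16.7% of all probe sets were lower without overlap, and all 4 passed the threshold in limma, where 0.959% of all probe sets were lower and 0.568% higher. They were the only probe sets of the 61 to do so, in either direction. By the methods' t-test 3 of the 4 passed, the exception being 1430695_at, against 0.246% of all probe sets that were lower by that test. The probe sets share the same 4 RNA samples and are not independent replicates. *Tlr4* was also a gene the study itself had picked from these arrays, so that its call is not independent evidence of its direction.

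Without each array in turn the brightest probe set stayed between -0.83 and -0.64 and passed the threshold every time, and without *Junf/f* replicate 1 it was at -0.73. Probe set 1442827_at also passed each time. The call of 1418163_at was lost without *Jun delta mu* replicate 2, at -0.36 (unadjusted p = 0.0587 in limma). That of the dimmest, 1430695_at, held only without *Junf/f* replicate 2 and was lost without *Junf/f* replicate 1, at -0.27, and without *Jun delta mu* replicate 1 or 2, at -0.41 and -0.45 (unadjusted p = 0.0943 and 0.0756 in limma). The 5 measured genes nearest on either side, which span -2.87 to 5.37 megabases around the start of *Tlr4*, lay between -0.18 and 0.14 with a median of 0.03. Of these 10, 0 passed the threshold, where 0.786% of all genes were lower past it. *Tnc*, *8030451A03Rik*, *Astn2* and *Brinp1* among them were read in the dimmest 40% of the array, where a fall could be missed. Vessel markers were mostly below 0 beside *Tlr4*. Of 8 genes of blood endothelium, 7 were below 0 and 6 were lower without overlap (15.9% of all genes were), with a median of -0.14 and a summed linear signal of 5072 and 5188 in *Junf/f* against 4633 and 4647 in *Jun delta mu* hearts, although 0 of the 8 passed the threshold (1 with an unadjusted p under 0.05 in limma, 2 by the methods' t-test). Their part in the fall of *Tlr4* was not tested.

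**Figure D2:**
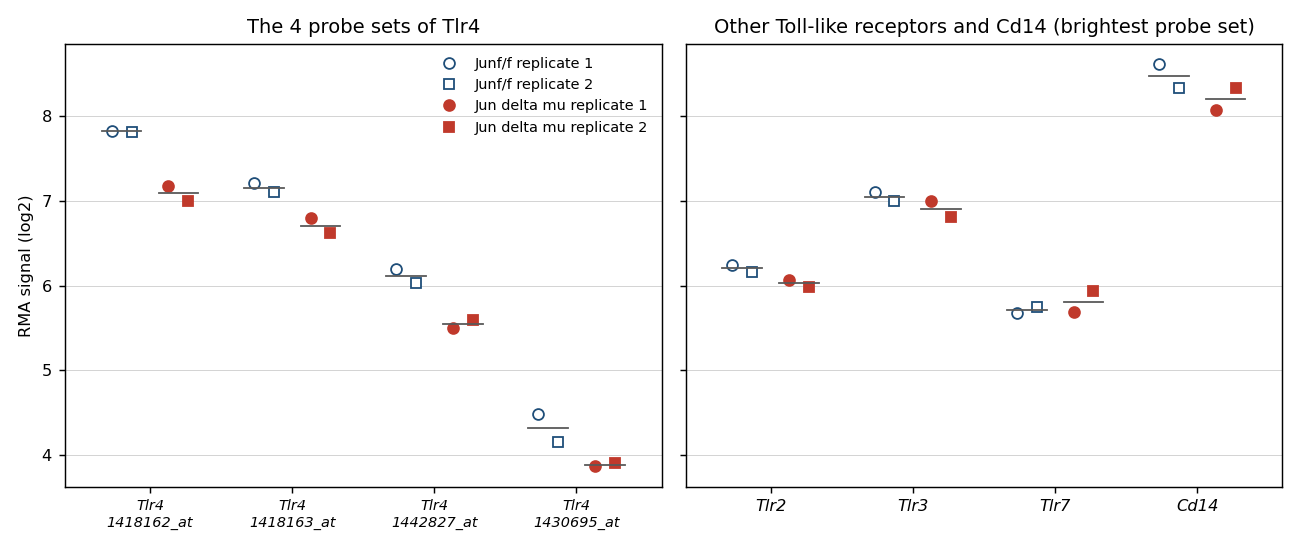
RMA signal (log2) of the 4 Tlr4 probe sets (left) and of the brightest probe sets of the other Toll-like receptors and Cd14 (right) on each of the 4 arrays, with lines at the genotype means. Levels of different probe sets cannot be compared with each other. Within each Tlr4 probe set both Jun delta mu arrays lie below both Junf/f arrays. The same holds for Tlr2 and, by the narrowest margin, Cd14, whereas Tlr3 and Tlr7 overlap. Of all probe sets, 16.7% were lower without overlap.

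**Figure D3:**
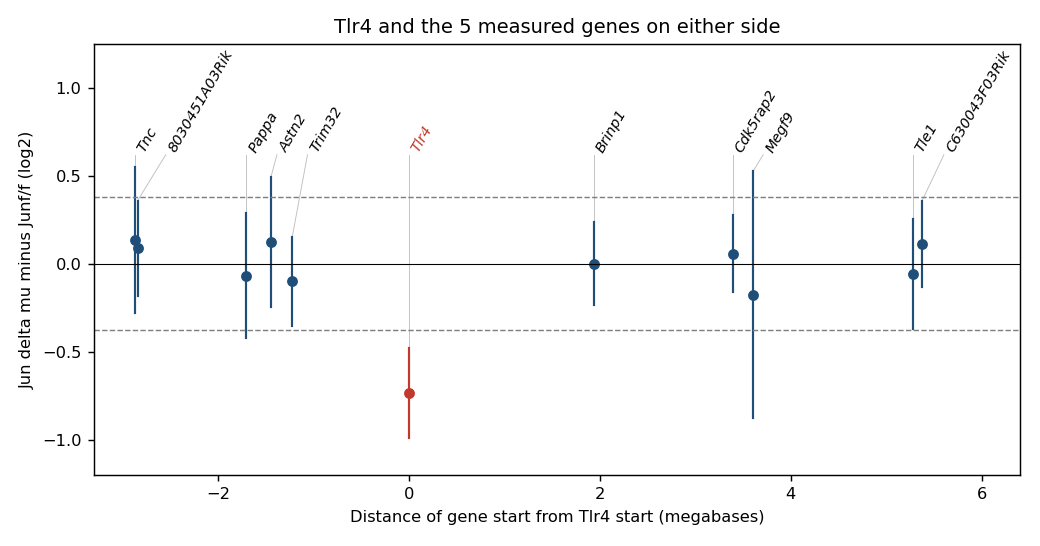
Difference between the genotypes (Jun delta mu minus Junf/f, log2, brightest probe set, 95% interval of the limma fit) of Tlr4 and the 5 measured genes on either side, by the distance of their starts in megabases. Dashed lines mark a 1.3-fold difference: Tlr4 is at -0.73, and its 10 neighbours are between -0.18 and 0.14. Tnc, 8030451A03Rik, Astn2 and Brinp1 were read by probe sets in the dimmest 40% of the array.

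The other pattern receptors did not pass. *Cd14*, the co-receptor that hands lipopolysaccharide to TLR4, was at 8.62 and 8.34 in *Junf/f* and at 8.08 and 8.34 in *Jun delta mu* hearts, a difference of -0.27 (standard error 0.14). Its groups were separate by the narrowest margin, since the lower *Junf/f* array and the higher *Jun delta mu* array gave the same rounded signal. It passed the threshold, at -0.41, without *Junf/f* replicate 2. *Tlr2*, a receptor for bacterial lipoproteins, was at 6.25 and 6.16 against 6.07 and 5.99, a difference of -0.18 (standard error 0.09) with groups that did not overlap. *Tlr3*, the receptor for double-stranded RNA, was at 7.11 and 6.99 against 7.00 and 6.81, a difference of -0.15, and its groups overlapped. Its second probe set was at -0.22 without overlap. *Tlr7*, the receptor for single-stranded RNA, was at 5.67 and 5.74 against 5.69 and 5.93, a difference of 0.10, and its 2 dimmer probe sets were at 0.01 and -0.15. So *Tlr2*, *Tlr3* and *Cd14* had values below 0 beside *Tlr4*, none past the threshold, and whether their differences are smaller than that of *Tlr4* was not tested.

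Markers of macrophages gave no common direction. *Cd68*, a lysosomal protein that defines macrophages in most tissues, was at 7.00 and 6.63 in *Junf/f* and at 6.87 and 6.64 in *Jun delta mu* hearts, so that the arrays of a genotype differed more than the genotypes, whose difference was -0.06 (95% interval -0.45 to 0.33). *Csf1r*, the receptor that macrophages need for survival, was at 10.93 and 10.96 against 11.09 and 11.18, a difference of 0.19 (standard error 0.09, unadjusted p = 0.0845 in limma). Its 3 probe sets, at 0.19, 0.14 and 0.10, were all higher without overlap, and none passed. *Lyve1*, a hyaluronan receptor of resident macrophages and lymphatic vessels, was at 9.27 and 8.93 against 9.10 and 9.02, a difference of -0.04 with overlapping groups.

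The receptors by which monocytes and resident cells are told apart gave mixed readings. *Cx3cr1*, the fractalkine receptor, was at 5.49 and 5.34 in *Junf/f* and at 5.20 and 5.09 in *Jun delta mu* hearts, a difference of -0.27 (standard error 0.10, unadjusted p = 0.0406 in limma). Its groups did not overlap, but the difference stayed under 1.3-fold, and its other probe set was at -0.10. *Ccr2*, the receptor that brings monocytes into tissue, was at 6.76 and 7.19 against 7.15 and 7.31 by its brightest probe set, a difference of 0.26 with overlapping groups. Its other probe sets disagreed, at 0.04, -0.29 and 0.28, the last 2 each with an unadjusted p under 0.05 in limma (0.0185 and 0.0375) and groups that did not overlap. No direction can therefore be given for *Ccr2*. The remaining surface markers were *Cd163* and *Mrc1*, scavenger and mannose receptors of resident macrophages, *Itgam*, the integrin CD11b, and *Lyz2*, lysozyme, and they lay at 0.19, -0.00, -0.00 and 0.04, each with overlapping groups.

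Genes of leukocyte and Fc receptor signalling and the chains of C1q, which resident macrophages make, did not pass either. *Tyrobp*, the adaptor DAP12 of activating receptors, was at 8.19 and 8.32 in *Junf/f* and at 8.40 and 8.37 in *Jun delta mu* hearts, higher without overlap by 0.13. *Ptprc*, the pan-leukocyte phosphatase CD45, *Fcer1g*, the common gamma chain of Fc receptors, and *Fcgr3*, a low-affinity receptor for IgG, were at -0.20, -0.08 and 0.15 with overlapping groups. *C1qa* was at 9.93 and 9.80 against 9.78 and 9.79, a difference of -0.07 in which the groups did not overlap. *C1qb* was at 9.73 and 9.61 against 9.60 and 9.82, and *C1qc* at 9.08 and 8.99 against 9.04 and 9.13, with differences of 0.04 and 0.05 and overlapping groups. Dimmer probe sets of *C1qb* were at 0.19 with overlapping groups and at 0.21 without overlap, and neither passed. The genes of the 3 C1q chains are neighbours on chromosome 4, *C1qb* from 136880126 to 136886200, *C1qc* from 136889801 to 136892936 and *C1qa* from 136895916 to 136898844. Their proteins join into the recognition part of the classical complement pathway, and here their intervals all held 0.

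Taken over these 16 macrophage, Fc receptor and C1q genes, 8 were below 0 and 8 above, 0 passed the threshold by limma (1 with an unadjusted p under 0.05, 0 by the methods' t-test), and the median difference was 0.02. Their summed linear signal was 10326 and 9792 in *Junf/f* hearts and 10190 and 10708 in *Jun delta mu* hearts, so the groups overlapped. *Junf/f* replicate 1 gave the highest signal for 8 of the 16 and *Junf/f* replicate 2 for 0, and the gap between these 2 arrays was larger than the genotype difference in 12 of the 16 genes (75.0%, against 65.7% of all genes). The median of the 16 was 0.10 without *Junf/f* replicate 1 and -0.08 without *Junf/f* replicate 2. A second list of 30 other macrophage genes, from *Adgre1* to *Vsig4*, had 11 below 0 and 19 above, a median of 0.04 and 0 past the threshold by limma (2 with an unadjusted p under 0.05, 1 by the methods' t-test).

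**Figure D4:**
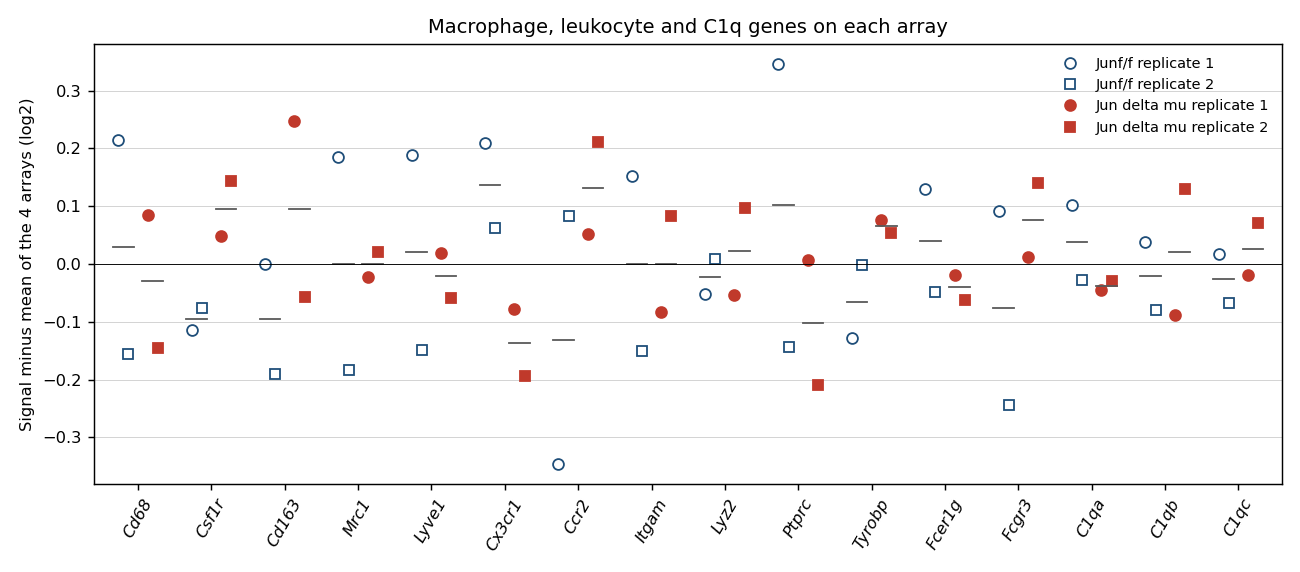
Signal of the brightest probe set of each of the 16 macrophage, leukocyte and C1q genes on each array, as log2 signal minus the mean of that gene over the 4 arrays, with lines at the genotype means. Junf/f replicate 1 (open circles) and replicate 2 (open squares) often lie at opposite ends, and replicate 1 is the highest array for 8 of the 16 genes and replicate 2 for 0.

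Among the cytokines, *Il1b*, the inflammatory cytokine IL-1 beta, was at 5.59 and 5.86 in *Junf/f* and at 6.07 and 5.88 in *Jun delta mu* hearts, a difference of 0.25 (standard error 0.13). *Il6ra*, the ligand-binding chain of the IL-6 receptor, was at 6.65 and 7.00 against 7.13 and 7.11, a difference of 0.29 (standard error 0.14), and its other probe set was at 0.33. Both genes were higher without overlap and did not pass, and both rested on the *Junf/f* arrays: without replicate 2 they passed at 0.39 and 0.47, and without replicate 1 each was at 0.12. *Il6*, the ligand of that receptor, was at 3.11 and 3.02 against 3.01 and 3.00, a difference of -0.06, from a probe set in the dimmest 40% of the array, so that these values give little information on its transcript. *Tnf* was at 5.95 and 6.23 against 6.13 and 6.20, a difference of 0.07 with overlapping groups. *Il1r1*, the signalling receptor for IL-1, was at -0.08 with overlapping groups.

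The 7 CC chemokine genes lie on chromosome 11 and gave the members nearest to the threshold. *Ccl7*, a ligand of CCR2, was at 5.54 and 5.72 in *Junf/f* and at 5.30 and 5.24 in *Jun delta mu* hearts. The groups did not overlap, and the difference of -0.36 (standard error 0.10, unadjusted p = 0.0151 in limma) lay just inside 1.3-fold, with -0.45 and a pass without *Junf/f* replicate 1. *Ccl8*, another monocyte chemokine, was at 6.27 and 6.02 against 6.36 and 6.70, higher without overlap by 0.39 (standard error 0.16), above 1.3-fold but with an unadjusted p of 0.0511 in limma. It passed after quantile normalization of the deposited values, at 0.41, after cyclic loess, at 0.40, without *Junf/f* replicate 1, at 0.52, and without *Jun delta mu* replicate 1, at 0.56, and was at 0.26 and 0.22 without the other 2 arrays in turn. *Ccl2*, the main ligand of CCR2, was at 5.31 and 5.25 against 5.21 and 5.13, a difference of -0.11 with groups that did not overlap. Thus *Ccl2*, *Ccl7* and *Ccl8*, which lie within chromosome 11 from 82035577 to 82116799, did not share a direction.

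The other CC chemokines, *Ccl3*, *Ccl5*, *Ccl6* and *Ccl9*, lay between -0.15 and 0.02 with overlapping groups, and *Ccl3* was read by a probe set in the dimmest 40%. *Ccl6*, a chemokine made by resting macrophages, was at 9.46 on *Junf/f* replicate 1 and between 8.88 and 9.04 on the other arrays, and its difference of -0.15 was 0.14 without that array. Among the CXC chemokines, *Cxcl12*, which holds CXCR4-bearing cells in tissue and is made by stromal and endothelial cells, was at 9.87 and 9.86 against 9.47 and 9.73. Its groups did not overlap by this brightest probe set, while its dimmer probe sets, at -0.19 and -0.13, had overlapping groups. The gene was at -0.26 by the brightest, and none of its 3 probe sets passed the threshold. Without *Jun delta mu* replicate 2 it passed, at -0.39. *Cxcl1*, a neutrophil attractant, was at 0.06 by its brightest probe set and at 0.12 and -0.20 by the others, and *Cxcl14* was at 0.03, with 7.83 and 7.21 on its *Junf/f* arrays.

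**Figure D5:**
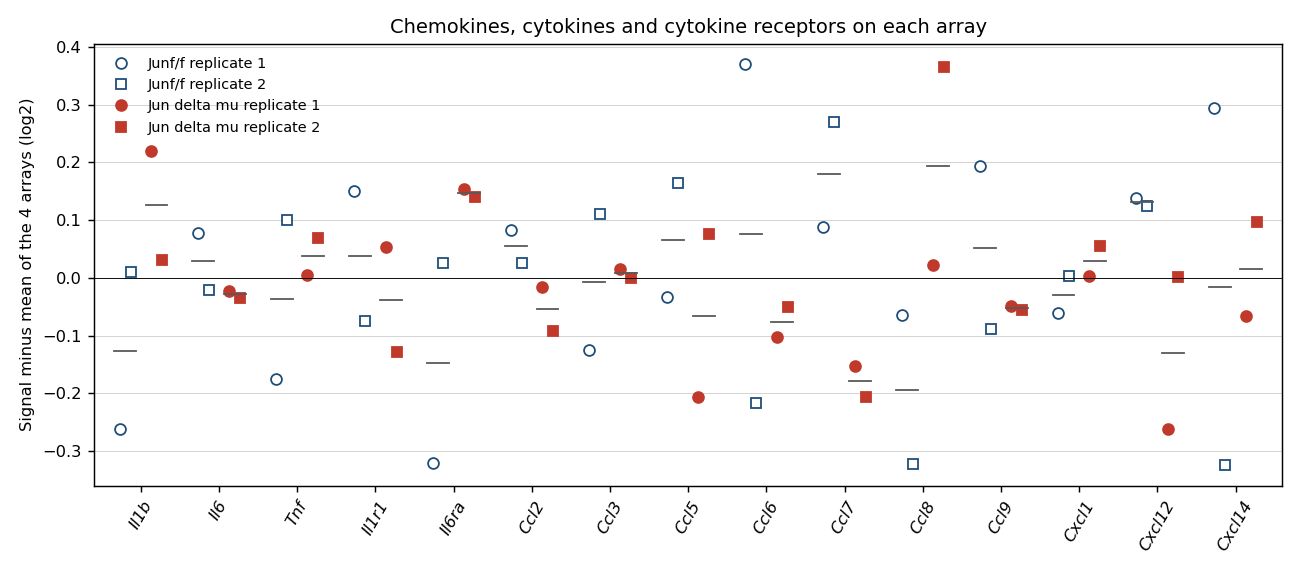
Signal of the brightest probe set of 15 cytokines, cytokine receptors and chemokines on each array, as log2 signal minus the mean of that gene over the 4 arrays, with lines at the genotype means. Il6, Ccl2, Ccl7 and Cxcl12 lie lower and Il1b, Il6ra and Ccl8 higher in Jun delta mu hearts without overlap. None of these 7 passed the threshold, and of all genes 15.9% were lower and 17.8% higher without overlap. Il6 was read by a probe set in the dimmest 40% of the array.

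Promoter sequence of the members bears on c-Jun through the AP-1 motif. The RefSeq promoter table, on GRCm38.p6, holds 29 promoters of 26 members and none for *Csf1r*, *Lyve1*, *Tyrobp*, *C1qa*, *Cd14*, *Tlr4*, *Tlr7*, *Ccl2*, *Ccl5* and *Ccl7*. Each runs from 250 bases before the start of the gene to 50 after it, and both strands were searched. The AP-1 letters TGANTCA were in 3 of the 29 promoters, those of *Ccl9*, *Cd68* and *Il6*, against 7.81% of all 32851 promoters. The NF-kappaB letters, GGGAN directly followed by TTTCC, were in 3 of the 29, those of *Cxcl1*, *Il6* and *Tlr3*, against 0.411%. The PU.1 letters GAGGAAGT, for a factor of macrophage genes, were in 1 of the 29, that of *C1qc*, against 3.2%. The CRE letters TGACGTCA were in 0 of the 29, against 1.79%. In the printed promoters none of these motifs overlaps another. The 3 promoters with AP-1 letters are printed because they are the members in which the motif of the deleted factor stands near the start. They cover the 250 bases before it, 5′ to 3′ on the strand of the gene, with the AP-1 letters and, in *Il6*, also the NF-kappaB letters in capitals. *Il6* is at chr5:30012864-30013113 on the plus strand, *Cd68* at chr11:69666171-69666420 and *Ccl9* at chr11:83578637-83578886 on the minus strand.
Il6: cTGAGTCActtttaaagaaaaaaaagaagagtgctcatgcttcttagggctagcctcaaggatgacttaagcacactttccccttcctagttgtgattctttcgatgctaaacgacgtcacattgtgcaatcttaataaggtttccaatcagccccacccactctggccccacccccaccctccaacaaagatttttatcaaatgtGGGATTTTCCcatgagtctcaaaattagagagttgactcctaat
Cd68: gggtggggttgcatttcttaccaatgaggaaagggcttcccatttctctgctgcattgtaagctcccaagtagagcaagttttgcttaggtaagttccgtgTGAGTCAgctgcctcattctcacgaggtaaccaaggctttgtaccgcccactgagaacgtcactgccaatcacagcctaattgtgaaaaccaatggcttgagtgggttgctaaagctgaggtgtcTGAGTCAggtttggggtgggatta
Ccl9: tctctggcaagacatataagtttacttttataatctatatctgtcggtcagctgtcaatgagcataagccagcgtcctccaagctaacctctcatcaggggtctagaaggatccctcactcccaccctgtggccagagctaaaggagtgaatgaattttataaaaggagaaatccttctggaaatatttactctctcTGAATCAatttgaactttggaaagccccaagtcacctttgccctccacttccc
The AP-1 letters stand 249 to 243 bases before the start in *Il6*, 149 to 143 and 24 to 18 in *Cd68* and 53 to 47 in *Ccl9*, and the NF-kappaB letters of *Il6* 44 to 35 bases before it. With *Jun* down to 37.8%, these genes differed by -0.06 (*Il6*), -0.06 (*Cd68*) and -0.10 (*Ccl9*), and none passed the threshold. Macrophages are not targeted by the MCK-Cre driver, and *Il6* was read by a probe set in the dimmest 40% of the array. An effect of c-Jun on these genes was therefore not tested. A match of letters is a description of the sequence, not a binding site.

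Over the 36 members, 9 were lower and 5 higher without overlap between the genotypes. Of all genes, 15.9% were lower and 17.8% higher in that way. The members also differed among the arrays within a genotype: *Junf/f* replicate 1 was the highest array for 19 of the 36 (52.8%, against 30.4% of all genes), *Junf/f* replicate 2 for 4, *Jun delta mu* replicate 1 for 4 and *Jun delta mu* replicate 2 for 9. The median of the 36 was 0.04 without *Junf/f* replicate 1 and -0.14 without *Junf/f* replicate 2. Without *Junf/f* replicate 2, more members and more genes over the whole array passed the threshold than with all arrays, in both directions. The share that passed there was larger among the members than among all genes. That fit leaves 1 *Junf/f* array, and this difference in shares was not tested.

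Other genes of the same pathways gave 1 call, lower, in 92 measured genes of the 103 listed, where 0.786% of all genes were lower and 0.665% higher past the threshold. It was *Ackr3*, a scavenging receptor for CXCL12, at 10.59 and 10.68 in *Junf/f* and at 10.19 and 10.09 in *Jun delta mu* hearts, lower without overlap by 0.50 (difference -0.50, standard error 0.09) and at 70.8% of the *Junf/f* signal, by a probe set whose suffix marks probes shared between transcripts. Its 2 known partners among the members and the list, *Cxcl12* and the receptor *Cxcr4*, were at -0.26 and 0.04, and neither passed. The Toll-like and IL-1 receptor pathway had 0 of 27 genes past the threshold by limma (3 with an unadjusted p under 0.05 there and 3 by the methods' t-test) and a median of -0.02. There *Ly96*, the MD-2 protein that binds lipopolysaccharide with TLR4, was at -0.22 (standard error 0.16) and *Myd88* at -0.12 (standard error 0.13), both named for their role after their values were seen, as was *Cxcr4*. *Tlr8* had the highest difference of these 27 genes, 0.35 (standard error 0.09, unadjusted p = 0.00979 in limma), and was also named after its value was seen. It was higher without overlap (17.8% of all genes were) but under 1.3-fold. Of the 27 genes, 16 were below 0 and 11 above. The NF-kappaB list had 0 of 17 (2 in limma and 1 by the methods' t-test with an unadjusted p under 0.05) and a median of -0.04. The list of IL-6 family, inflammasome and other cytokine genes had 0 of 22 (1 and 0) and a median of 0.00, and the chemokine receptors and other chemokines had 1 of 26 and a median of 0.04, with *Cx3cl1* higher by 0.42 in a dimmer probe set.

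Markers of other cells that a heart sample can hold were counted beside the members. No gene of the lists for neutrophils (9 measured, median 0.09), mast cells (7, -0.01), T and NK cells (10, 0.06), B cells (7, -0.06) or working heart muscle (8, -0.01) passed the threshold by limma, and 0, 0, 1, 0 and 0 of them had an unadjusted p under 0.05 there (0, 0, 0, 1 and 2 by the methods' t-test). These counts use the brightest probe set of each gene, and dimmer probe sets of *Cd8a* and *Ighm* were higher past the threshold. The red cell gene *Alas2* at -0.49 and the lymphatic gene *Reln* at -0.43 were lower past the threshold, with list medians of -0.31 over 3 and -0.15 over 5 genes, and the fibroblast gene *Pi16* was higher at 0.45, with a list median of 0.14 over 8 genes. Of these 8 fibroblast genes 6 were above 0 and 2 below, and 5 were higher and 0 lower without overlap (17.8% and 15.9% of all genes were). An unadjusted p under 0.05 was reached by 3 of them in limma and by 2 in the methods' t-test. The 4 atrial genes were all highest on *Jun delta mu* replicate 2 (median 1.79, or 0.16 without it). No marker on any array had a signal of 0, since RMA gives every probe set a value and no detection call, and the part of these cell types in the differences of the members was not tested.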

How the data were processed

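RNA of hearts from 2 *Junf/f* and 2 *Jun delta mu* mice was hybridised by the authors to 1 array per sample. The deposited values are log2 signals per probe set, for which the submitters' processing notes name RMA and the R package oligo, without versions. Of 45101 probe sets, the 64 AFFX controls were dropped and the rest tested without a filter. Arrays have no read depth, and precision is set by their number, which leaves 2 residual degrees of freedom.

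The platform annotation gives 1 gene symbol to 34945 probe sets, several to 932 and no symbol to 9160. Positions came from a RefSeq gene table on GRCm38.p6. Genotype was the only term of a limma fit (version 3.58.1, R 4.3.3, lmFit and eBayes, two-sided), with Benjamini-Hochberg adjustment over 45037 probe sets. The study's threshold was applied to it, and the Student's test of the methods was an alternative. A gene was read by its probe set with the highest mean signal. Values per array are given for members that passed, whose groups did not overlap or that define a role, and genes of the 4 pathway and 11 cell type lists are named where they passed. The members and lists were chosen with earlier results of these data known. The fit was tested on simulated data. Replicate numbers do not pair the samples. Other alternatives were a replicate block, omission of the dimmest 40% of probe sets, quantile and cyclic loess normalization, array weights, the median of each gene's probe sets, probe sets without a suffix that marks shared probes, and each array left out. In the last, the spread of a genotype with 1 array is taken from the other. Figures were drawn with matplotlib 3.10.9.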

Additional observations from a re-analysis of the deposited data

How the results depend on the processing

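*Tlr4* stayed lower and past the threshold under every alternative run, between -0.83 and -0.64 with each array left out. The number of members past the threshold was 1, and 2 after quantile normalization, after cyclic loess and with the median of each gene's probe sets, where *Ccl8* joined *Tlr4* at 0.41, 0.40 and 0.39. With 1 array left out it ranged from 2 to 7, and the member probe sets past it, 4 with all arrays, from 3 to 13, the highest counts being without *Junf/f* replicate 2. Over all probe sets 688 passed, 200 by the methods' t-test, and 739 to 3452 with 1 array left out. Pathway genes past the threshold ranged from 1 to 8 with 1 array left out, and were 0 with specific probe sets only, since that setting removes the probe set of *Ackr3*. The difference of *Jun* ranged from -1.67 to -1.13.

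With replicate number as a block, 683 probe sets, 1 member gene (*Tlr4*) and 4 member probe sets passed, and no member's call changed. The correlation over probe sets of the deviations from the group mean was 0.03 between *Junf/f* replicate 1 and *Jun delta mu* replicate 1. The samples share only a number.

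Of 285 values of member differences under alternatives other than leaving out an array, 274 kept direction and side of the threshold, 3 passed (*Ccl8*) and 8 changed sign. *Mrc1* turned to 0.019 by quantile normalization and 0.015 by cyclic loess, *Itgam* to 0.0044 by quantile normalization, *Ccl3* to -0.0062 and -0.0052 by these 2, *Ccr2* to -0.12 with the median over its probe sets, and with specific probe sets only *Cxcl1* turned to -0.20 and *Cxcl14* to -0.017. With 1 array left out, 111 of 144 values kept direction and side, 23 changed sign over 17 genes and 10 passed over 9 genes. The ranges of those that changed sign were -0.25 to 0.12 for *Cd68*, -0.18 to 0.18 for *Mrc1*, -0.21 to 0.13 for *Lyve1*, -0.15 to 0.15 for *Itgam*, -0.032 to 0.12 for *Lyz2*, -0.45 to 0.041 for *Ptprc*, -0.17 to 0.0082 for *Fcer1g*, -0.014 to 0.32 for *Fcgr3*, -0.067 to 0.15 for *C1qb*, -0.021 to 0.23 for *Tlr7*, -0.063 to 0.21 for *Tnf*, -0.19 to 0.036 for *Il1r1*, -0.10 to 0.13 for *Ccl3*, -0.27 to 0.011 for *Ccl5*, -0.45 to 0.14 for *Ccl6*, -0.25 to 0.036 for *Ccl9* and -0.28 to 0.34 for *Cxcl14*. Those that passed were *Ccr2* at 0.48, *Ptprc* at -0.45, *Cd14* at -0.41, *Il1b* at 0.39, *Il6ra* at 0.47 and *Ccl6* at -0.45 without *Junf/f* replicate 2, *Ccl7* at -0.45 and *Ccl8* at 0.52 without *Junf/f* replicate 1, *Ccl8* at 0.56 without *Jun delta mu* replicate 1 and *Cxcl12* at -0.39 without *Jun delta mu* replicate 2. The causes were not tested. The filter on dim probe sets gives no value for *Il6* and *Ccl3*, and specific probe sets only none for *Il1b*.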
